A study of Caenorhabditis elegans with 6 samples.

Results

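The dispersed piRNA precursors of Caenorhabditis elegans were taken as the precursor windows of chromosomes II, III, V and X, together with those of chromosome IV that start below 4.5 Mb or from 7 Mb to below 13 Mb. The window of 21ur-2844, which lies over a small nucleolar RNA gene, was left out. This gave 931 windows of the 15703 in the table: 119 on chromosome II, 87 on III, 343 on IV, 214 on V and 168 on X. The other windows compared with them were the 2839 in the small piRNA cluster of chromosome IV, which spans 4.5 to 7 Mb, and the 11825 in its large cluster, which begins at 13 Mb. The choice rests on position alone.

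The counts came from small RNA of isolated germ nuclei, after 3 h on plates with 1 mM auxin (3 libraries) or with ethanol alone (ETOH, 3 libraries), following 45 h of growth at 22 °C. All libraries were of strain YL701, whose genotype combines ISW-1::eGFP::AID on chromosome III, a degron-tagged ISWI-family chromatin remodeller, with wrdSi51 on chromosome II. That transgene uses the mex-5 promoter and a tbb-2 3′ UTR to express TIR1, joined through F2A to mTagBFP2 with a degron and a nuclear localization signal. TIR1 is the plant F-box protein that sends degron-tagged proteins to the proteasome when auxin is present, and the mex-5 promoter is active in the germ line, so the depletion is meant for germ cells. ETOH worms carried the same alleles. The depletion of ISW-1 and the germline identity of the nuclei could not be checked in a table of piRNA windows. RNA had been treated with phosphatase and then with a pyrophosphohydrolase that removes caps, which favours molecules with a 5′ cap.

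The 3 libraries of each condition had been pooled into 1 column by the authors, so differences between auxin and ETOH have no replicate check and no p-value was computed. Without 21ur-2844 the columns held 306254 counts in auxin and 351522 in ETOH. Intervals are at 95%. Those of ratios reflect only counting error, and they are too narrow if reads were PCR copies of the same molecule. Those of shares and of medians are over windows, which are not replicates of a condition. In such bulk samples, fewer nuclei of a type and less RNA per nucleus cannot be told apart. Depth of the whole libraries is unknown, so a change shared by all windows and a difference in depth cannot be told apart.

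Worm piRNAs, or 21U-RNAs, bind the Argonaute PRG-1 and direct the silencing of transposons and other foreign sequence in the germ line. RNA polymerase II transcribes each one from its own small gene as a short capped precursor, which is trimmed at both ends. Most of these genes lie in the clusters of chromosome IV and carry an upstream motif bound by the upstream sequence transcription complex, whose subunits include PRDE-1, SNPC-4, TOFU-4 and TOFU-5. Another class of 21U-RNAs without that motif arises near the starts of other genes. Whether a dispersed window carries the motif was not analysed here.

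The dispersed windows stood apart from the clusters in spacing. The median distance from the start of a dispersed window to that of the nearest other window was 15674 bases, against 138 bases in the small cluster and 39 in the large one. On chromosome IV outside the clusters it was 4428 bases, and on the other chromosomes it ran from 33587 bases (X) to 55860 (III). In the 0.5 Mb below 4.5 Mb there were 13 windows, against 270 in the 0.5 Mb above it. The 0.5 Mb from 7 Mb held 49 windows, against 230 in the 0.5 Mb below. At 13 Mb the boundary was flat, with 18 windows in the 0.5 Mb below and 13 in the 0.5 Mb above. The dispersed windows at the boundaries were 21ur-14085 (0 counts in both columns), 21ur-14807 (0 in both) and 21ur-8871 (4 in auxin and 3 in ETOH). Those just across them, 21ur-9960, 21ur-9962 and 21ur-15150, had 0 counts in both.

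Most dispersed windows had no read. A count was present in 233 of 931 windows in auxin (25.03%, interval 22.3 to 27.9) and in 211 in ETOH (22.7%, 20.0 to 25.5). Reads were present in both columns for 147 windows, in auxin alone for 86 and in ETOH alone for 64, and 634 had none. Over all 15703 windows of the table, 787 had reads in auxin alone and 974 in ETOH alone. These numbers were 166 and 150 of 2839 in the small cluster, and 528 and 752 of 11825 in the large one. The dispersed windows seen in a single column had few counts: 53 of the 86 had 1 count in auxin, and 23 of the 64 had 1 count in ETOH. The largest were 21ur-11608 on III, with 8 counts in auxin and 0 in ETOH, and 21ur-12305 on V and 21ur-13771 on II, each with 0 in auxin and 8 in ETOH, which were singled out after their values were seen. A count in either column was found in 31.9% of dispersed windows, against 25.7 percent of all windows in the table.

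The share was 21.8% in the small cluster and 26.0% in the large one, but overlap between windows lowers it there, because a read whose 5′ base lies in more than 1 window was counted for none. Only 27 of 931 dispersed windows overlapped another on the same strand, against 957 of 2839 in the small cluster and 5335 of 11825 in the large one. Among windows without overlap, 32.6% of dispersed windows had a count (29.6 to 35.8), against 31.7% in the small cluster (29.6 to 33.9) and 44.2% in the large one (43.0 to 45.5). All such windows together gave 40.6%. The dispersed windows and those of the small cluster had overlapping intervals for this share, and those of the large cluster had a count more often. Windows with 10 or more counts made up 8.85% of dispersed windows without overlap (7.08 to 10.9), 7.92% of those in the small cluster and 16.0% of those in the large one, with 13.7% over all of them.

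**Figure D1:**
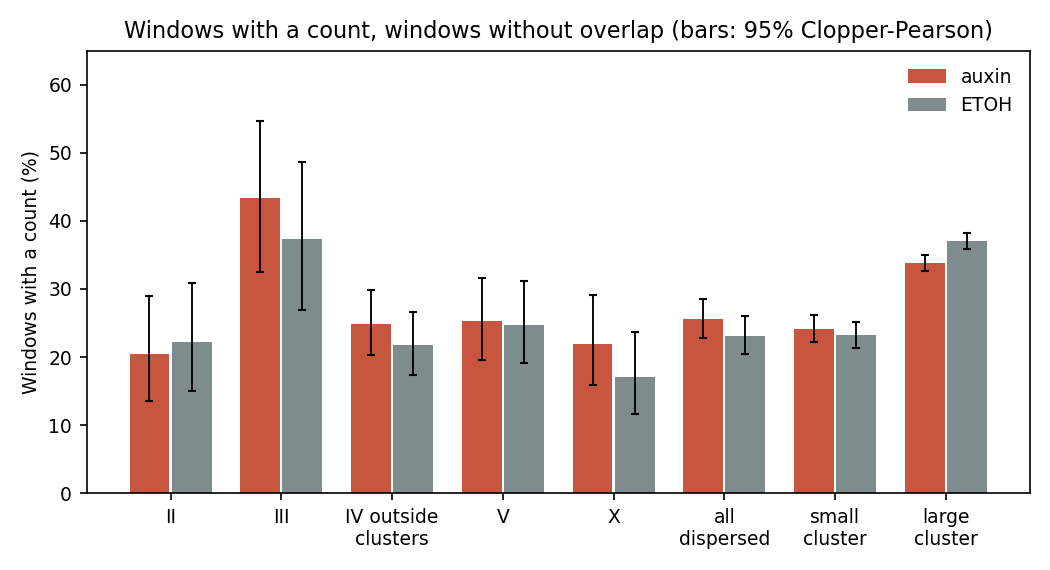
Share of windows with a count (vertical axis, percent) in the pooled auxin and ETOH columns, by chromosome for dispersed windows and for both clusters of chromosome IV, leaving out windows that overlap another. Error bars are 95% Clopper-Pearson intervals over windows, which are not replicates. Chromosome III has the highest share in both columns, 43.4% in auxin and 37.3% in ETOH. The large cluster is the one group whose auxin and ETOH intervals do not overlap, at 33.9% and 37.0%.

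Chromosomes differed in how often a window had a count. Among windows without overlap the share with a count in either column was 48.2% on III (37.1 to 59.4), against 26.2% on X (19.7 to 33.6), and those intervals did not overlap. Chromosomes II, IV and V lay between, at 30.8%, 31.3% and 34.6%, with intervals that overlapped one another. When the ETOH column was thinned to the auxin total, 205.7 dispersed windows were expected to have a count, against 233 in auxin, a ratio of 1.13. This ratio was 0.948 on II, 1.16 on III, 1.17 on IV, 1.05 on V and 1.35 on X, and it was 1.07 in the small cluster and 0.937 in the large one. For windows with 3 or more counts the ratio was 0.945, so the excess in auxin lay among windows with 1 or 2 counts.

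The summed counts of dispersed windows were 13051 in auxin and 15376 in ETOH, a raw ratio of 0.849 (0.829 to 0.869). Dispersed windows therefore held 4.26% of auxin counts and 4.37% of ETOH counts once 21ur-2844 was left out. The raw ratio was 0.886 in the small cluster (0.869 to 0.902) and 0.870 in the large one (0.865 to 0.874), so the dispersed interval ended just below that of the small cluster and overlapped that of the large one. A single window, 21ur-12947 on X, held 48.1% of dispersed counts in auxin and 44.1% in ETOH. Without it the dispersed ratio was 0.788 (0.764 to 0.814). Each cluster without its own most abundant window had a ratio of 0.914 in the small cluster (0.892 to 0.937) and 0.816 in the large one (0.810 to 0.821), so the dispersed interval lay below the first and overlapped the other. The 10 most abundant dispersed windows held 78.5% of auxin counts and 74.9% of ETOH counts, and the 81 windows with 10 or more counts over both columns held 97.7% of each.

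By chromosome, the raw ratio of summed counts was lowest on III, with 1051 counts in auxin and 1683 in ETOH (0.624, 0.578 to 0.675). Chromosome II followed, with 1957 counts in auxin and 2557 in ETOH (0.765, 0.721 to 0.812). Chromosome IV outside the clusters had 1988 in auxin and 2320 in ETOH (0.857, 0.807 to 0.910). Chromosome X had 6965 in auxin and 7631 in ETOH (0.913, 0.883 to 0.943), or 689 in auxin and 848 in ETOH without 21ur-12947 (0.812, 0.734 to 0.899). Chromosome V had 1090 in auxin and 1185 in ETOH (0.920, 0.846 to 1.00). The interval of III lay below those of the other 4 chromosomes. On III, 56 of 87 windows lay over 24 bases from the annotated piRNA of their name. So did 80 of 119 on II and 134 of 168 on X. Medians by this displacement are given below. Leaving out each window with 10 or more counts in turn, the ratio of III ran from 0.564 without 21ur-15583 to 0.682 without 21ur-9360. The ratio of V ran from 0.853 without 21ur-13193 to 0.985 without 21ur-14649. On IV, windows before the small cluster had 578 counts in auxin and 539 in ETOH (1.07, 0.952 to 1.21), and those between the clusters had 1410 in auxin and 1781 in ETOH (0.792, 0.738 to 0.849).

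**Figure D2:**
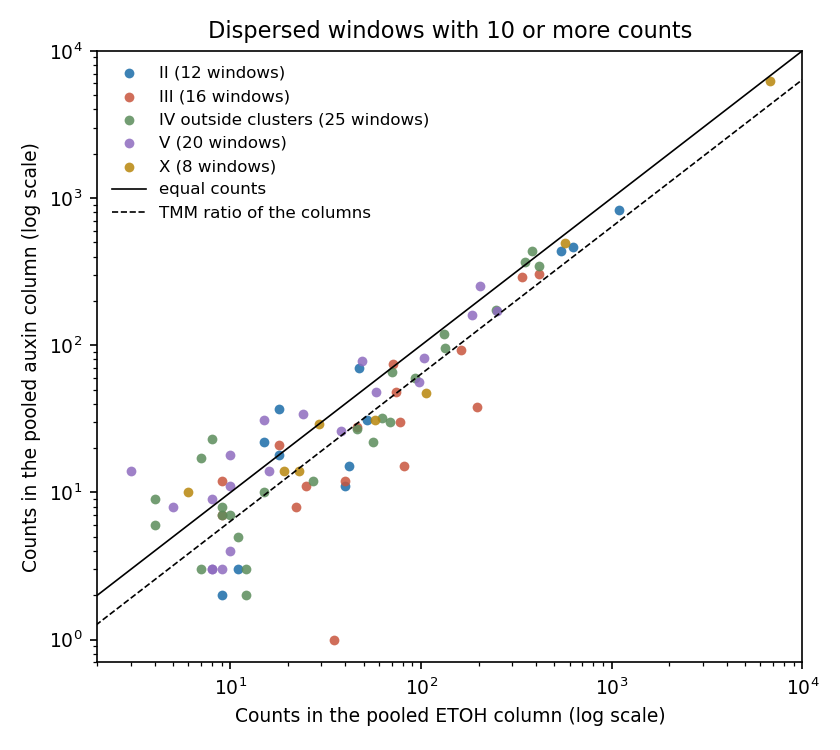
Counts of each of the 81 dispersed windows with 10 or more counts, in the pooled ETOH column (horizontal axis, log scale) and the pooled auxin column (vertical axis, log scale), coloured by chromosome; the solid line marks equal counts and the dashed line the TMM ratio of the columns, 0.637. The X-linked window 21ur-12947, with 6276 counts in auxin and 6783 in ETOH, stands far above the others, and 21ur-12617 on III, with 1 in auxin and 35 in ETOH, lies farthest below the lines.

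Single windows are located below by the 21 bases of their namesake mature piRNA in the WBcel235 annotation, and gene context is given there. The windows of the table drift from these positions, although the submitters' processing notes name ce11, the same assembly. Whether the reads were aligned to the build of the windows is not given in the sources used here. If they were not, counts in the 305 dispersed windows displaced by over 24 bases, 21ur-12947, 21ur-9360 and 21ur-12617 among them, may not be reads of the named piRNA. The same can hold for windows displaced less on the minus strand, where the 5′ base of the piRNA has its highest coordinate. The counted windows of 21ur-14823, 21ur-13193 and 21ur-9757 end before that base. The most abundant dispersed window, 21ur-12947 (X:13397505-13397525, minus strand), lay opposite coding sequence of F02C12.3. Its counted window (X:13397437-13397460) was displaced by 68 bases and lay opposite an intron. It had 6276 counts in auxin and 6783 in ETOH, a raw ratio of 0.925 (0.894 to 0.958), and made up 89.5% of the dispersed counts of X. Outside protein-coding genes, 21ur-9757 (X:1792466-1792486, minus strand) had 494 counts in auxin and 568 in ETOH (0.870, 0.769 to 0.983). The window of 21ur-14115 (X:8736731-8736751, plus strand), opposite coding sequence of M02D8.3, had 47 in auxin and 106 in ETOH (0.443, 0.308 to 0.631). These 3 windows held 97.8% of the dispersed counts of X, and all 3 were lower in auxin in raw counts.

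On chromosome II the counts were also concentrated, with 88.2% in 3 windows. Opposite a pseudogene, 21ur-8602 (II:9291156-9291176, minus strand) had 825 counts in auxin and 1094 in ETOH (0.754, 0.688 to 0.826). A pair of windows 521 bases apart lay opposite coding sequence of F15D4.5. Of these, 21ur-10492 (II:13247294-13247314, minus strand) had 465 counts in auxin and 622 in ETOH (0.748, 0.662 to 0.844). The other, 21ur-10687 (II:13246773-13246793, minus strand), had 433 in auxin and 544 in ETOH (0.796, 0.700 to 0.905). The pair had like counts and ratios, with intervals that overlapped. Multi-mapping reads were counted, and whether the pair share sequence was not analysed here.

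Neighbours did not always move alike. The windows of 21ur-8285 (II:3373666-3373686) and 21ur-14793 (II:3374009-3374029), both on the plus strand and 343 bases apart, were singled out after their values were seen. The first had 70 counts in auxin and 47 in ETOH (1.49, 1.01 to 2.20), and the other had 15 in auxin and 42 in ETOH (0.357, 0.184 to 0.657). Their intervals did not overlap. Among windows with 10 or more counts, the other 2 pairs within 1000 bases were 21ur-8153 and 21ur-5883 on IV, at raw ratios of 0.516 and 0.902, and 21ur-13684 and 21ur-12752 on V, at 0.870 and 1.13.

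On chromosome III the 3 windows with the most counts all lay opposite exons. The window of 21ur-15576 (III:191805-191825, minus strand), opposite coding sequence of cox-17, a copper chaperone of cytochrome oxidase, had 306 counts in auxin and 415 in ETOH (0.737, 0.634 to 0.857). The window of 21ur-15583 (III:3871149-3871169, plus strand), opposite coding sequence of the TIR-domain adaptor gene tir-1, had 292 in auxin and 338 in ETOH (0.864, 0.736 to 1.01). The window of 21ur-12364 (III:13755791-13755811, minus strand), opposite the 3′ UTR of the myosin light chain gene mlc-7, had 93 in auxin and 161 in ETOH (0.578, 0.443 to 0.750). The interval lay wholly below 1 for 21ur-15576 and 21ur-12364 and included 1 for 21ur-15583.

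Chromosome III also held 4 of the 5 dispersed windows whose interval lay farthest below the other windows of the table after scaling. The window of 21ur-9360 (III:9616286-9616306, plus strand), opposite coding sequence of hcp-3, the centromeric histone H3 variant, had 38 counts in auxin and 197 in ETOH. Its raw ratio was 0.193 (0.133 to 0.274). The window of 21ur-12617 (III:13289701-13289721, plus strand), opposite coding sequence of set-25, a histone H3 lysine methyltransferase, had 1 count in auxin and 35 in ETOH, a raw ratio of 0.0286 with a wide interval (0.000704 to 0.170). Outside protein-coding genes, 21ur-15589 (III:13118794-13118814, minus strand) had 15 in auxin and 81 in ETOH (0.185, 0.0991 to 0.324). The window of 21ur-15580 (III:5005252-5005272, plus strand), opposite coding sequence of R144.12, had 12 in auxin and 40 in ETOH (0.300, 0.143 to 0.583). The one window of the 5 on another chromosome, 21ur-15579 (II:9415026-9415046, plus strand), opposite coding sequence of the glutathione synthetase gene gss-1, had 11 in auxin and 40 in ETOH (0.275, 0.127 to 0.546). These 5 were picked by their intervals, so their ratios may lie too far from no change.

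On chromosome IV outside the clusters, the 3 windows with the most counts held 53.4% of the dispersed counts, and all lay opposite exons. The window of 21ur-15630 (IV:2318114-2318134, minus strand), opposite the 3′ UTR of Y38F2AL.12, had 436 counts in auxin and 383 in ETOH (1.14, 0.990 to 1.31). The window of 21ur-12981 (IV:10693264-10693284, plus strand), opposite coding sequence of R102.4, had 367 in auxin and 352 in ETOH (1.04, 0.898 to 1.21). The window of 21ur-14823 (IV:8728237-8728257, minus strand), opposite coding sequence of otub-3, had 347 in auxin and 415 in ETOH (0.836, 0.723 to 0.967). Only the last of these had an interval that did not include 1.

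On chromosome V the 3 windows with the most counts held 53.7% and differed in direction. The window of 21ur-13193 (V:16003711-16003731, minus strand), opposite coding sequence of the nuclear hormone receptor gene nhr-63, had 252 counts in auxin and 203 in ETOH (1.24, 1.03 to 1.50). The window of 21ur-14649 (V:10960304-10960324, plus strand), opposite coding sequence of vps-36, which encodes a subunit of the endosomal sorting complex ESCRT-II, had 170 in auxin and 251 in ETOH (0.677, 0.554 to 0.826). Outside protein-coding genes, 21ur-13684 (V:16319095-16319115, plus strand) had 161 in auxin and 185 in ETOH (0.870, 0.700 to 1.08). The intervals of 21ur-13193 and 21ur-14649 did not overlap.

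Chromosome V held 3 of the 5 dispersed windows whose interval lay farthest above the other windows after scaling, and chromosome III none. Outside protein-coding genes, 21ur-14524 (V:1454942-1454962, minus strand) had 78 counts in auxin and 49 in ETOH (1.59, 1.10 to 2.32). The window of 21ur-15011 (V:8306194-8306214, plus strand), opposite coding sequence of W02D7.8, had 31 in auxin and 15 in ETOH (2.07, 1.08 to 4.12). The window of 21ur-11706 (V:17342836-17342856, plus strand), opposite the 3′ UTR of the F-box gene fbxa-188, had 14 in auxin and 3 in ETOH (4.67, 1.30 to 25.3). The others were 21ur-14704 on II, in coding sequence of C15F1.5 on the same strand, with 37 in auxin and 18 in ETOH (2.06, 1.14 to 3.84), and 21ur-9185 on IV, opposite an intron of F38E11.6, with 23 in auxin and 8 in ETOH (2.88, 1.24 to 7.43). All 5 were higher in auxin in raw counts too, and were picked by their intervals.

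**Figure D3:**
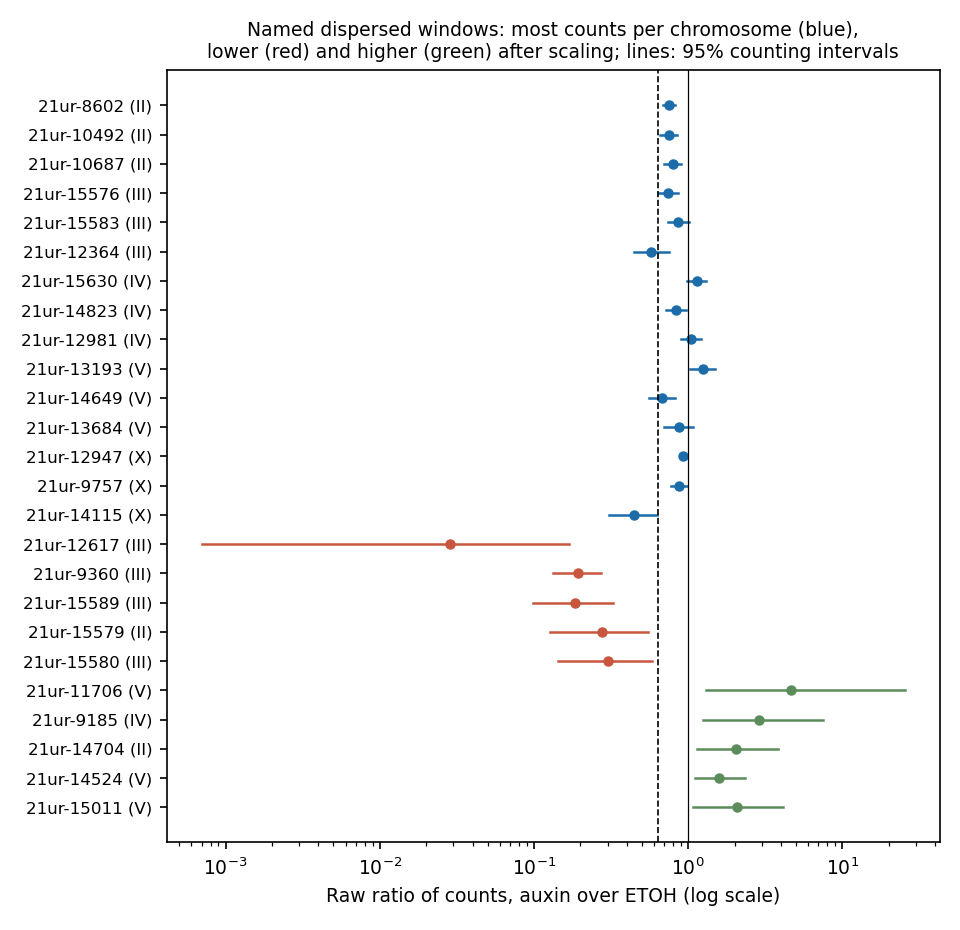
Raw ratio of counts, auxin over ETOH (horizontal axis, log scale), of the named dispersed windows, with 95% exact intervals for counting error; blue marks the 3 windows with the most counts on each chromosome, red and green the 5 lower and 5 higher windows after scaling, and the dashed line the TMM ratio of 0.637. The abundant windows lie between 0.443 (21ur-14115) and 1.24 (21ur-13193), and the interval of 21ur-12617 is the widest.

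The ratios were also compared over all 81 dispersed windows with 10 or more counts. Of these, 57 had fewer raw counts in auxin (70.4%), 22 had more and 2 had equal counts, against 78.5 percent with fewer among all 1320 such windows of the table. The median raw log2 ratio was −0.43 (interval over windows −0.63 to −0.21), against −0.24 in the small cluster and −0.73 in the large one. In raw counts 23 dispersed windows were at least 2-fold lower in auxin (28.4%), against 38.9 percent of all windows tested, and 6 were at least 2-fold higher (7.41%), against 4.02 percent. In the small cluster 26.5% were lower and 4.64% higher, and in the large one 41.4% and 3.74%. Counting intervals excluded 1 on the low side in 34 dispersed windows, against 40.7 percent of all, and on the high side in 7, against 2.42 percent. Among the 29 dispersed windows with 100 or more counts, 3 were at least 2-fold lower in raw counts (10.3%), against 27.6 percent of all 330 such windows. In the small cluster 1 of 26 was lower by this rule, and in the large one 82 of 265. At least 2-fold higher were 0 of the 29 and 0 of the 330. Intervals of the 29 excluded 1 on the low side in 17, against 65.8 percent of the 330, and on the high side in 3, against 3.94 percent.

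TMM scaling removed a shift of −0.65 on the log2 scale, estimated over all 1320 windows tested. Estimated over the 330 windows with 100 or more counts, the shift was −0.45. After scaling by −0.65, 7 dispersed windows were at least 2-fold lower in auxin (8.64%) and 13 at least 2-fold higher (16.0%). The background was 14.8 percent lower and 8.41 percent higher among all 1320 windows tested, of which 1069 lay in the large cluster. In the small cluster 9.27% were lower and 9.27% higher, and in the large one 16.2% and 7.86%. The split of 7 lower and 13 higher depended on scaling: it was 21 and 3 with no scaling, 10 and 8 with column totals, and 13 and 6 with totals that leave out 21ur-2844. Without windows displaced by over 24 bases from the annotated piRNA, 2 were lower and 9 higher. The median scaled log2 ratio of dispersed windows was 0.21 (0.017 to 0.39). It was 0.36 in the small cluster and −0.082 in the large one, and dispersed windows lay 0.23 above both clusters together. This difference was 0.015 when windows displaced by over 24 bases were left out of the dispersed windows and of the clusters, which removes all 11530 windows of the large cluster with an annotated piRNA. Among windows with 100 or more counts, medians of the raw log2 ratio were −0.33 in the 29 dispersed windows, −0.081 in 26 of the small cluster and −0.56 in 265 of the large one. Among windows with 20 to 99 counts they were −0.63 in 32 dispersed windows, −0.40 in 73 of the small cluster and −0.82 in 482 of the large one. Among windows with 10 to 19 counts they were −0.77 in 20 dispersed windows, −0.17 in 52 of the small cluster and −0.74 in 322 of the large one.

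By chromosome, the median raw log2 ratio was −0.75 on III (16 windows), −0.49 on IV (25), −0.41 on II (12), −0.31 on X (8) and −0.19 on V (20). The intervals over windows overlapped, at −1.70 to −0.21 on III and −0.56 to 0.49 on V. Fewer counts in auxin were found in 13 of 16 windows on III (81%), 19 of 25 on IV (76%), 8 of 12 on II (67%), 6 of 8 on X (75%) and 11 of 20 on V (55%). The share was 78.5 percent over all 1320 windows tested. After scaling, windows at least 2-fold lower numbered 3 on III (18.8%), 2 on II (16.7%), 2 on IV (8%) and 0 on V and X. Over all windows tested this share was 14.8 percent. Those at least 2-fold higher numbered 6 on V (30%), 3 on II (25%), 3 on IV (12%), 1 on X (12.5%) and 0 on III, against 8.41 percent. As for the dispersed windows together, the number called depends on the scaling, and each chromosome had few windows.

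**Figure D4:**
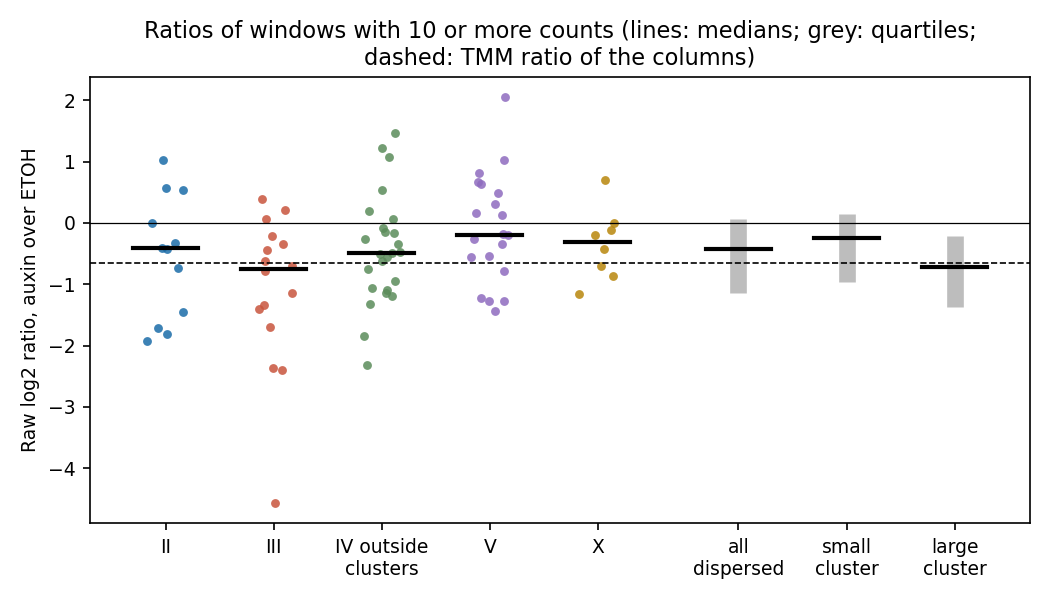
Raw log2 ratio of counts, auxin over ETOH (vertical axis), of dispersed windows with 10 or more counts, by chromosome (points, with the median as a black line), beside the median and quartiles (grey) of all dispersed windows and of both clusters; the dashed line is the TMM ratio of the columns. The medians run from −0.75 on III to −0.19 on V, with wide scatter within each chromosome, and the dispersed median of −0.43 lies between those of the small cluster (−0.24) and the large one (−0.73).

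Whether a dispersed window had reads went with its place in protein-coding genes. Among windows without overlap, a count in either column was present in 70 of 135 windows opposite an exon (51.9%, 43.1 to 60.5) and in 60 of 135 in an exon on the same strand (44.4%, 35.9 to 53.2). It was present in 34 of 108 opposite an intron (31.5%), 25 of 120 in an intron on the same strand (20.8%) and 106 of 406 outside protein-coding genes (26.1%). So a count was found in 48.1% of windows in exons of either strand (42.1 to 54.3) and in 26.0% of the others (22.6 to 29.6), with intervals that did not overlap. In the clusters the shares were alike: 38.5% of 441 windows in exons (34.0 to 43.3) and 41.6% of 7931 others (40.5 to 42.7).

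Among abundant windows the strands differed over all chromosomes together, with intervals over windows that did not overlap. Of the dispersed windows opposite an exon, 36 of 135 had 10 or more counts (26.7%, 19.4 to 34.96), against 11 of 135 on the same strand as an exon (8.15%, 4.14 to 14.1) and 33 of 634 outside exons (5.21%, 3.61 to 7.23). With 10 or more counts in the auxin column alone the share opposite exons was 23.0%, and in the ETOH column alone 23.7%. In the clusters, 15.8% of 203 windows opposite an exon had 10 or more counts (11.0 to 21.5), 10.5% of 238 on the same strand (6.91 to 15.1) and 14.3% of 7931 outside exons (13.5 to 15.0). The share of dispersed windows opposite exons with 10 or more counts was above that outside exons on each of the 5 chromosomes, from 14.8% opposite exons against 3.31% outside them on X to 53.3% against 7.84% on III. The strands did not differ on V, at 18.9% of 37 windows opposite exons and 18.75% of 32 on the same strand. On II, III, IV and X the share was lower on the same strand. Of the 36 windows, 31 lay opposite coding sequence and 5 opposite a 3′ UTR.

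**Figure D5:**
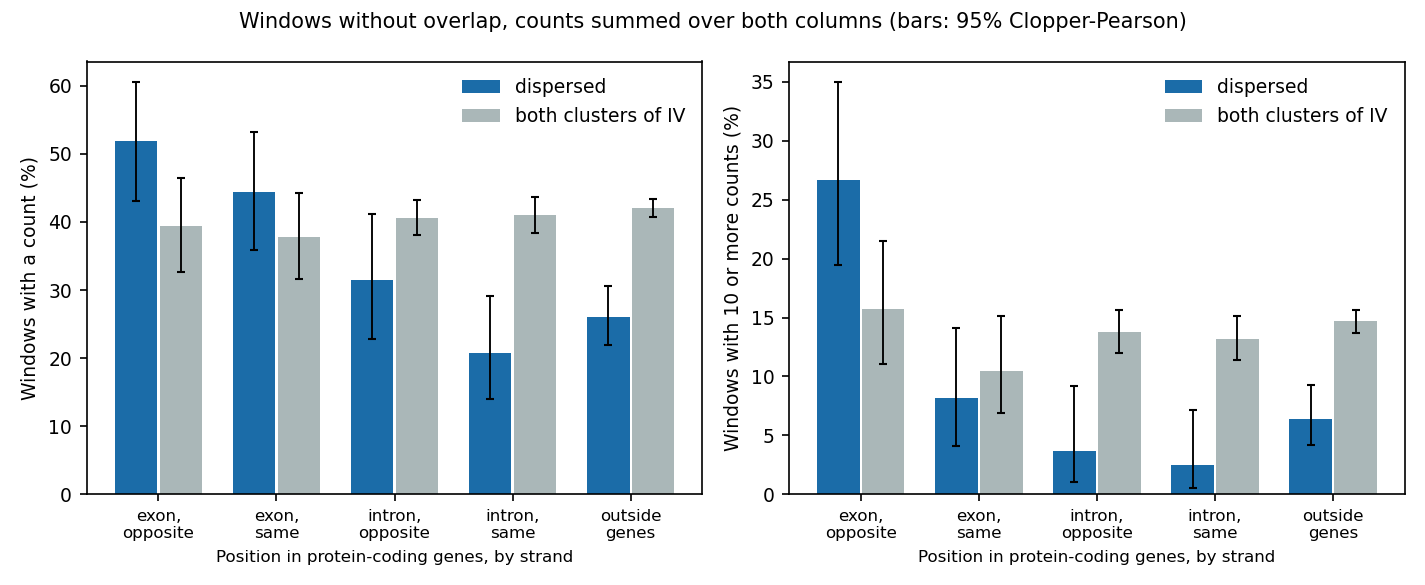
Share of windows with a count (left) and with 10 or more counts (right), in percent, by position in protein-coding genes and strand, for dispersed windows and for both clusters of chromosome IV; windows that overlap another are left out, counts are summed over both columns, and bars are 95% Clopper-Pearson intervals. Dispersed windows opposite exons stand highest in both panels, at 51.9% and 26.7%, while the cluster shares run from 37.8% to 42.0% and from 10.5% to 15.8%.

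Windows opposite exons carried 77.4% of all dispersed counts, or 58.2% without 21ur-12947, although they were 139 of 931 windows. With the class read at the deposited window, those opposite exons carried 31.1% and those opposite introns 47.9%, because 21ur-12947 then lay opposite an intron; without it, those opposite exons carried 57.4%. Windows outside protein-coding genes carried 18.7%, and the other classes 0.756% to 1.54% each. The raw ratio of summed counts was 0.858 opposite exons, 0.768 there without 21ur-12947, and 0.814 outside exons. Opposite exons, 29 of the 36 windows with 10 or more counts had fewer in auxin (median raw log2 ratio −0.55, interval −0.79 to −0.34). Outside exons 21 of 33 did (−0.20, −0.56 to 0.059), and these intervals overlapped. The share with fewer was 78.5 percent over all 1320 windows tested. Over both clusters the order was the reverse. Fewer counts in auxin were found in 23 of 32 windows opposite exons (−0.37, −0.96 to −0.12). Outside exons 892 of 1131 had fewer (−0.64, −0.74 to −0.59), and these intervals overlapped. The large cluster had this order of medians, at −0.41 opposite exons (25 windows) and −0.71 outside them (994). The small cluster did not, at −0.24 opposite exons (7 windows) and −0.18 outside them (137). In dispersed windows displaced by over 24 bases, the medians were −0.79 opposite exons and −0.78 outside them. In those displaced less they were −0.34 and −0.17. Windows within 200 bases of an annotated transcript start on the same strand had a count in 27 of 74 cases (36.5%, 25.6 to 48.5), against 268 of 830 farther away (32.3%, 29.1 to 35.6), with intervals that overlapped.

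The tbb-2 3′ UTR is part of the TIR1 transgene, and 1 dispersed window with 10 or more counts lay in it on the same strand. This window, 21ur-13952 (III:4015917-4015937, minus strand), singled out after its values were seen, had 8 counts in auxin and 22 in ETOH (0.364, 0.140 to 0.848). Reads of the transgene and of the beta-tubulin gene tbb-2 itself cannot be told apart there. No dispersed window with 10 or more counts lay over a ribosomal, transfer, small nuclear or small nucleolar RNA gene on its own strand.

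Most windows in the table were displaced from the annotated piRNAs. For the 875 dispersed windows with an annotated piRNA of the same name, the displacement was up to 102 bases, with a median size of 52.5 bases on III, 52 on II, 59 on X, 19 on V and 16 on IV. The next shares are of the 848 among them without overlap. A count in either column was present in 45.8% of windows displaced by 5 bases or less (34.0 to 58.0), in 32.6% at 6 to 24 bases, in 37.9% at 25 to 50 and in 32.5% above 50 (26.1 to 39.4). Windows with 10 or more counts and without overlap had a median raw log2 ratio of −0.72 where displaced by over 24 bases (28 windows) and −0.26 where displaced less (51). On III the medians were −1.35 at 25 to 50 bases (3 windows) and −1.15 above 50 (7). They were −0.076 at 6 to 24 bases (4 windows) and −0.44 at 5 or less (1). On V the order was the other way, at 0.045 for 25 to 50 bases (4 windows) and −0.19 for 6 to 24 (13). The 3 windows of III with the lowest raw ratios, 21ur-12617, 21ur-15589 and 21ur-9360, were displaced by 102, 102 and 85 bases. The part of displacement in these results was not tested. Windows displaced by 24 bases or less can also end before the 5′ base of the piRNA, so this limit does not set apart windows that hold it. The excess of windows with 10 or more counts opposite exons was present on both sides, at 30.9% of 55 windows displaced by over 24 bases and 23.8% of 80 displaced less, against 4.04% and 6.27% outside exons.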

How the data were processed

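The deposited values are raw, unnormalized counts of reads in each window. The authors made them, per the file headers, with featureCounts 2.0.3, strand-specific, with multi-mapping reads counted and each read reduced to its 5′ base, from 1 merged alignment file per condition. The build is ce11, per the submitters' processing notes. No source used here gives the aligner, the read filters or whether molecular identifiers were used, and the labels' protocols name different library kits, from Qiagen, for the same libraries.

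The members and lists were chosen with earlier results of these data known. Windows were matched by name, chromosome and strand, within 200 bases, to piRNAs of the Ensembl release 115 annotation of WBcel235 (15318 of 15703). Gene context was read at the annotated piRNA, or at the deposited window where none matched, in the order exon, then intron, and same strand, then opposite. Windows with 10 or more counts over both columns were tested for size: log2 ratios came from edgeR 4.0.16 in R 4.3.3 (TMM scaling, prior count 2) and a window was called at 2-fold. Raw log2 ratios used 0.5 added to each count, and raw ratios of single windows nothing. Ratio intervals were exact conditional binomial, share intervals Clopper-Pearson, and intervals of medians came from order statistics over windows, which are not replicates. ETOH counts expected at the auxin total came from the hypergeometric formula.

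Named were the 3 windows with the most counts per chromosome, the 5 lower and 5 higher windows with intervals farthest from no change after scaling, windows over structural RNA and the windows at each position limit. No sequence is shown, since no genome sequence was used here. The motif, the first base and the number of genomic copies were therefore not analysed here.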

Additional observations from a re-analysis of the deposited data

How the results depend on the processing

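Against 7 lower and 13 higher dispersed windows, there were 21 and 3 with no scaling, 28 and 47 with no minimum count (297 windows compared), 13 and 6 with column totals that leave out 21ur-2844, and 1 and 1 with a minimum of 100 counts (29 compared). With column totals 8 were higher, and without windows displaced by over 24 bases 2 were lower. The median scaled log2 ratio of 0.21 changed sign to −0.42 with no scaling, −0.044 with column totals and −0.22 with totals that leave out 21ur-2844, by the change in scaling alone. The median raw log2 ratio of −0.43 was −0.20 with no minimum. The total ratio of 0.849 was 0.788 without 21ur-12947. The detection ratio of 1.13 was 0.945 at 3 or more counts, 1.09 without displaced windows and 1.17 with 21ur-2844 in the totals. The share with a count was 18.6% at 3 or more counts. The share with a count in exons was 37.4% in auxin alone and 36.7% in ETOH alone. The cause of changes other than scaling, minimum and threshold was not tested. The difference from the clusters, 0.23, was 0.015 without displaced windows on both sides and ran from 0.17 to 0.35 under the other alternatives run. Alternatives on displacement, the minimum of 100, totals without 21ur-2844, gene context and the clusters' most abundant windows were chosen after seeing the data. No paired analysis was possible because each condition has 1 column, made from its pooled libraries, which also left no fit without single libraries. The alternative on genomic copies was not run, since no genome sequence was used here. Most windows had fewer than 10 counts, and 634 of 931 had none, so depth limits the ratios to 81 windows.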

Other observations

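Dispersed windows outside protein-coding genes were also divided by other annotated genes, after their values were seen. Of 9 windows without overlap that lay opposite a long intergenic noncoding RNA (lincRNA) gene, 8 had a count in either column and 8 had 10 or more counts. These were 21ur-8285 and 21ur-14793 (linc-11), 21ur-9823 (linc-24), 21ur-13684 and 21ur-12752 (linc-59, at a site also opposite a pseudogene), 21ur-9757 (linc-75) and 21ur-9719 and 21ur-15566 (linc-22). Their summed counts were 862 in auxin and 956 in ETOH. Of 374 windows with no lincRNA gene or pseudogene annotated at the site, 91 had a count and 15 had 10 or more, with 461 counts in auxin and 567 in ETOH. Of 14 windows opposite a pseudogene, 4 had a count, and 21ur-8602 was among them. The clusters held 2 windows without overlap opposite a lincRNA gene and outside protein-coding genes, and neither had a count. Raw ratios of the lincRNA windows with 10 or more counts ran from 0.357 (21ur-14793) to 1.67 (21ur-15566).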
